A study of Ovis aries with 15 samples.

Results

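Lysine 27 of histone H3 can be acetylated (H3K27ac), a mark of active promoters and enhancers, or trimethylated (H3K27me3), a mark written by the Polycomb repressive complex at silenced genes. One residue cannot carry both at a time, so the balance of the marks at a promoter places it nearer the active or the silent form. Many genes under Polycomb control are developmental regulators, such as homeobox factors, that are shut in differentiated cells. Perirenal fat of sheep is brown fat in the late fetus, rich in the heat-producing mitochondrial protein UCP1, and becomes white fat after birth. The balance was measured at the promoters of 2297 genes, which were those present in both the H3K27ac promoter table (13222 genes) and the H3K27me3 promoter table (6334 genes), out of 18460 genes in any of the 3 promoter tables of the study. These are called joined genes here.

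Chromatin came from perirenal adipose tissue of 2 lambs, labelled 80 days old, and of 2 fetuses taken 132 days after conception. The rearing protocol gives the age of the lambs as 89 ± 7 days. All animals were wild-type purebred Merino sheep, recorded as having received no treatment. The titles of all lamb libraries and of no fetal library carry a tag VEH, whose meaning the labels do not state and which cannot be told apart from stage. The pregnant ewes were on a maintenance diet, and the lambs stayed with their mothers until weaning. Each of the 4 animals gave an H3K27ac and an H3K27me3 library under one animal tag. H3K4me3, a mark of promoters that the balance does not use, was measured in 3 lambs, of which the third had no lysine 27 libraries, and in the same 2 fetuses. The tissue was used whole, so that fewer cells of a type and less of a mark per cell cannot be told apart in any result. The balance of a gene in an animal is log2(H3K27ac + 1) minus log2(H3K27me3 + 1), after each library was scaled so that the median promoter of its table is 100. A balance of 0 says that both marks stood at the same multiple of their own table's median, and a higher balance lies nearer acetylation. Changes are lamb minus fetal on the log2 scale with their standard error, and a gene is called where limma's moderated test gave a Benjamini-Hochberg adjusted p under 0.05.

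Read numbers were worked out from the step between the values of a library. The H3K27ac promoters held 6257855 and 5109478 reads in lambs, against 6080999 and 5061861 in fetuses. H3K27me3 was far shallower, with 407567 and 324662 promoter reads in lambs and 429387 and 430345 in fetuses, which is a median of 54 and 43 reads per promoter in lambs and 47 and 46 in fetuses. A single H3K27me3 read was worth 1.85 and 2.33 scaled units in lambs and 2.13 and 2.17 in fetuses, so low H3K27me3 levels rest on few reads. Log2 values spread less over the table in lambs than in fetuses, with an SD of 0.57 and 0.60 against 0.78 and 0.81 for H3K27ac and of 0.98 and 0.91 against 1.10 and 1.11 for H3K27me3. Across the joined genes the balance correlated at r = 0.84 between the lambs, 0.92 between the fetuses and 0.74 to 0.78 between a lamb and a fetus, in genes that share libraries. The tissue label was read against 37 adipocyte genes, of which 33 were in the H3K27ac table. Their median scaled H3K27ac level was 111 and 106 in lambs and 136 and 112 in fetuses, and the adipokine gene ADIPOQ stood at 179.7 and 175 against 228 and 259.

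In lambs the balance lay nearer acetylation than in fetuses at most joined genes. Of the 2297 genes, 762 were called toward acetylation (33.2%) and 59 toward methylation (2.57%), while 1476 were not called, and 1020 had an unadjusted p under 0.05. The median joined gene had a balance of 0.06 and 0.03 in lambs, against -0.45 and -0.45 in fetuses, and the median change was 0.60. Called changes toward acetylation ran from 0.78 to 3.88 (median 1.33), and those toward methylation from -0.87 to -2.54 (median -1.17). Both lambs lay outside the range of both fetuses at 760 of the 762 and at all 59 called genes, and at 1584 of all 2297 joined genes (69.0%). The median standard error of a change was 0.37, and the median within-stage SD of the balance was 0.32.

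The number of calls depended on the common shift of 0.60. When each library was scaled to the median of the joined genes (joined-gene scaling below), the median change was 0.10 and 301 genes were called toward acetylation and 159 toward methylation. Toward acetylation went 92.8% of the calls in the first scaling and 65.4% in the second. All of the 301 genes were among the 762, and all of the 59 were among the 159. On the deposited scale of the authors, 221 genes were called toward acetylation and 68 toward methylation (76.5% toward acetylation). Without fetal 2 the counts were 372 and 22, and without fetal 1 they were 581 and 30. The changes of single genes and lists are therefore best read beside the median of 0.60.

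**Figure D1:**
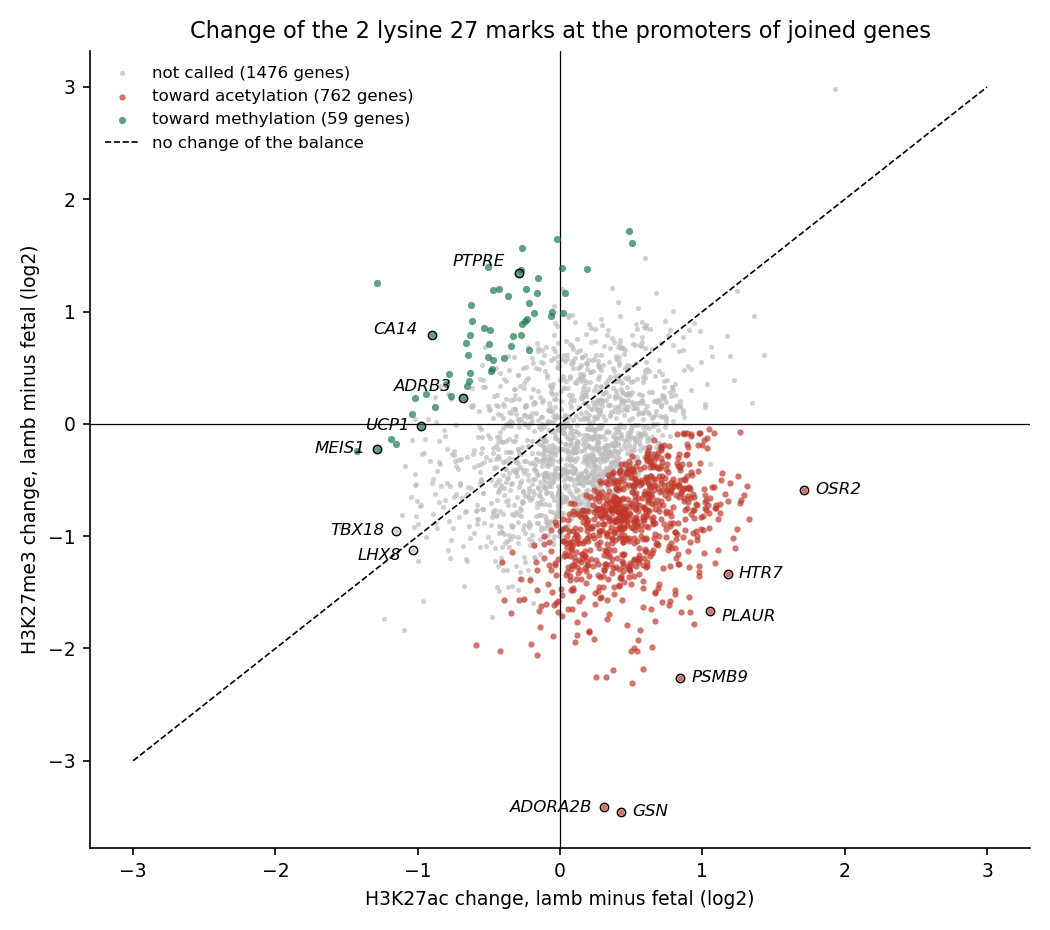
H3K27ac change (horizontal, log2, lamb minus fetal) against H3K27me3 change (vertical, same scale) at the 2297 joined genes. Red points are the 762 genes called toward acetylation, green points the 59 called toward methylation and grey points the 1476 that were not called; on the dashed line both marks changed equally. Of the labelled genes, GSN and ADORA2B lie lowest, through H3K27me3, OSR2 lies farthest right, through H3K27ac, and UCP1 and ADRB3 lie left of the dashed line with little change in H3K27me3.

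Loss of H3K27me3 made up the larger part of the change at 553 of the 762 genes called toward acetylation, and gain of H3K27ac at 209. The median of these 762 was 0.48 for H3K27ac and -0.85 for H3K27me3, beside 0.23 and -0.42 over all joined genes. The split between the marks is given for the first scaling alone. In the fit of each whole table, 159 of the 762 passed on both marks alone, 270 on lower H3K27me3 alone, 157 on higher H3K27ac alone, 173 on neither and 3 (DYRK3, FRMD4A and ENSOARG00000021874) were lower in both marks. Among the 59 genes called toward methylation, 5 passed on both marks, 25 on lower H3K27ac, 13 on higher H3K27me3 and 16 on neither, and H3K27me3 made up the larger part at 39. Across all joined genes, which are not independent replicates, the changes of the marks correlated at r = -0.03. The count of genes with higher H3K27ac and lower H3K27me3, each called alone, was 159, against 238 with a replicate block, 38 under joined-gene scaling, 21 on the deposited scale, 21 after quantile normalisation, 61 without fetal 2, 100 without fetal 1, 24 without lamb 1 and 19 without lamb 2.

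The single marks moved at different shares of the joined genes and of the other promoters in each table. H3K27ac was called higher at 457 of the 2297 joined genes (19.9%), against 800 of the 10925 promoters of that table outside the join (7.32%), and lower at 208 (9.06%) against 2496 (22.8%). Over all promoters of the H3K27ac table, 9.51% were called higher and 20.5% lower. H3K27me3 was called lower at 482 joined genes (21.0%), against 512 of the 4037 other promoters (12.7%), and higher at 23 (1.00%) against 141 (3.49%), with 15.7% lower and 2.59% higher over the whole table. The median change was 0.23 at joined genes and -0.07 at the other promoters for H3K27ac, and -0.42 and 0.01 for H3K27me3. These are descriptions, since the libraries are the same and the joined genes had lower H3K27ac (median scaled level 77.5 against 106.5) and lower H3K27me3 (88.8 against 107) than the others.

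Genes with more H3K27me3, a level that is also part of the balance, moved farther toward acetylation. In 4 equal groups of the joined genes by mean H3K27me3 level over all 4 animals, 13%, 19.3%, 32.6% and 67.8% were called toward acetylation, in order of rising level. The median change was 0.34, 0.36, 0.62 and 1.12 in that order, so the lowest 2 groups differed little in it. The prior variance of the test follows the H3K27me3 level, so the shares called do not measure the size of the change alone. The share called toward methylation was 2.26%, 4.70%, 2.79% and 0.523% in the same order. In the highest group (574 genes) the median H3K27me3 level was 165 and 153 in lambs, against 238 and 248 in fetuses, and the median H3K27ac level was 82.9 and 79.4 in lambs, against 63.9 and 59.2 in fetuses. Their median balance was -0.99 and -0.99 in lambs, against -1.88 and -2.10 in fetuses. In the lowest group (575 genes) it was 1.01 and 1.04 in lambs, against 0.70 and 0.47 in fetuses. Both extremes of the balance thus lay nearer each other in lambs, where log2 values also spread less over each table. The part of that spread in the group differences was not tested. Quantile normalisation within each mark removes the difference in spread, and 486 genes were then called toward acetylation and 66 toward methylation. These totals do not speak to the 4 groups, which are given in the first scaling alone.

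**Figure D2:**
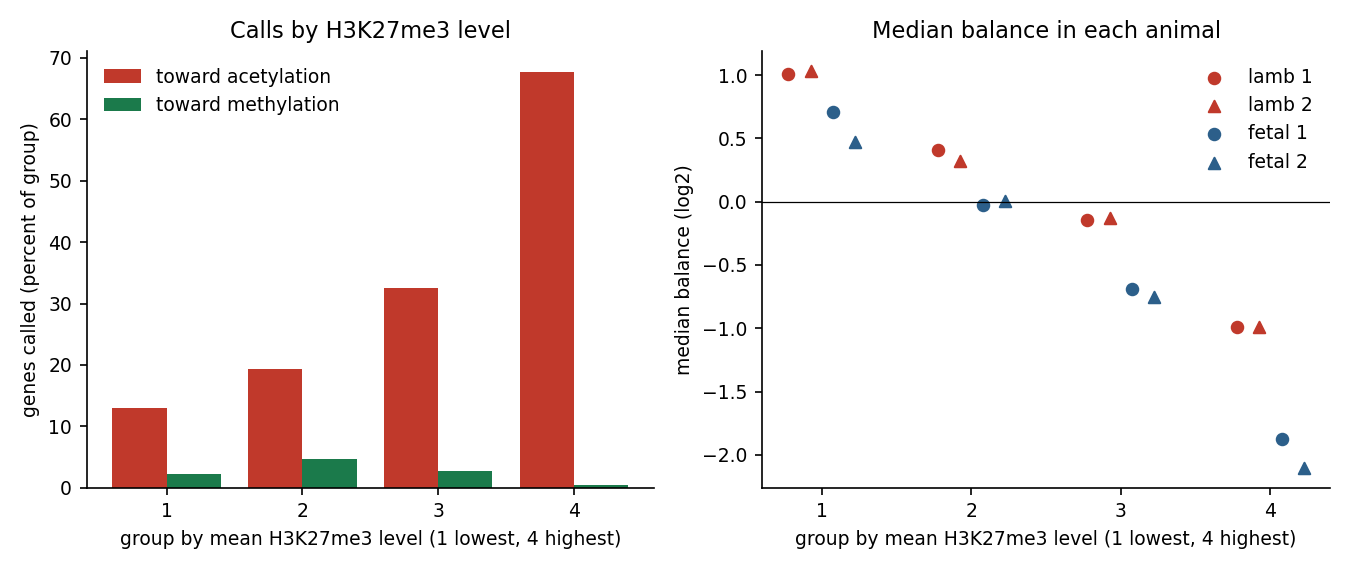
Calls and balance by H3K27me3 level, with the joined genes in 4 groups of rising mean H3K27me3 over all animals. Bars on the left give the percent of each group called toward acetylation (red) or methylation (green), reaching 67.8% in the highest group; points on the right give the median balance (log2) of each lamb (red) and fetus (blue), with the lambs above the fetuses in all 4 groups.

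The genes that moved farthest toward acetylation had less H3K27me3 in lambs than in fetuses. GSN, which encodes the actin-severing protein gelsolin, had a scaled H3K27me3 level of 20.4 and 4.65 in lambs, against 121 and 117 in fetuses. Its H3K27ac level was 141 and 133 in lambs, against 101 and 102 in fetuses. The balance of GSN was 2.73 and 4.56 in lambs, against -0.26 and -0.21 in fetuses, a change of 3.88 ± 0.54 (adjusted p = 1.7e-07). The lamb H3K27me3 of GSN rests on few reads (11 and 2 reads in lambs and 57 and 54 in fetuses), and its lamb to fetal ratio was 0.112 with a 95% exact interval of 0.0580 to 0.200 for counting error alone. The adenosine receptor gene ADORA2B had H3K27me3 at 13 and 4.65 in lambs, against 80.9 and 109 in fetuses, with 7 and 2 reads in lambs and 38 and 50 in fetuses. Its lamb to fetal H3K27me3 ratio was 0.0981 (95% exact interval 0.0434 to 0.195), and its balance changed by 3.72 ± 0.59 (adjusted p = 2.2e-06). H3K27ac of ADORA2B was 100.4 and 95.9 in lambs, against 102 and 61.4 in fetuses, and the stages overlapped in that mark.

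PSMB9, an immunoproteasome subunit, moved in both marks. Its H3K27ac level was 128 and 106 in lambs, against 76.9 and 54.2 in fetuses, and its H3K27me3 level was 13 and 20.9 in lambs, against 80.9 and 84.8 in fetuses. The balance changed by 3.1 ± 0.51 (adjusted p = 3.2e-06), and each mark passed alone. PLAUR, the urokinase receptor, had a high H3K27me3 level, at 129.6 and 177 in lambs, against 468 and 496 in fetuses. Its H3K27ac level was 139 and 123 in lambs, against 54.0 and 72.3 in fetuses, and its balance changed by 2.72 ± 0.30 (adjusted p = 1.1e-09). In both genes the lambs lay outside the range of the fetuses in each mark. The serotonin receptor gene HTR7 showed the same pattern, with H3K27ac at 93.2 and 86.2 in lambs, against 43.3 and 35.2 in fetuses and H3K27me3 at 94.4 and 67.4 in lambs, against 217 and 189 in fetuses. Its change was 2.51 ± 0.34.

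Further large changes were found at FXYD5, a regulator of the sodium pump (2.81), SERPINB1, an inhibitor of neutrophil proteases (2.76), SLAIN1, a microtubule-tip protein (2.72), and the glutathione transferase gene GSTP1 (2.64). MINK1, a protein kinase, changed by 2.58, DBNDD2 by 2.56, BATF3, a transcription factor of dendritic cells, by 2.52, RIPK3, the kinase of necroptosis, by 2.52, and S100A6, a calcium-binding protein, by 2.52. In all 14 genes named here the lambs and fetuses did not overlap in the balance. The naming rule required this of the 12 largest changes, and it held at 69.0% of all joined genes. All of these genes other than ADORA2B and MINK1 passed on both marks alone. H3K27ac levels of MINK1 were 172 and 143 in lambs, against 133 and 117 in fetuses, a change of 0.33 with an adjusted p of 0.08. The balance stayed below 0 in all 4 animals at SLAIN1 and BATF3, where it was -0.58 and -0.51 in lambs, against -3.18 and -3.36 in fetuses at SLAIN1 and -1.04 and -1.17 in lambs, against -3.51 and -3.74 in fetuses at BATF3. These calls held in each of the 14 alternatives in which the gene was tested.

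**Figure D3:**
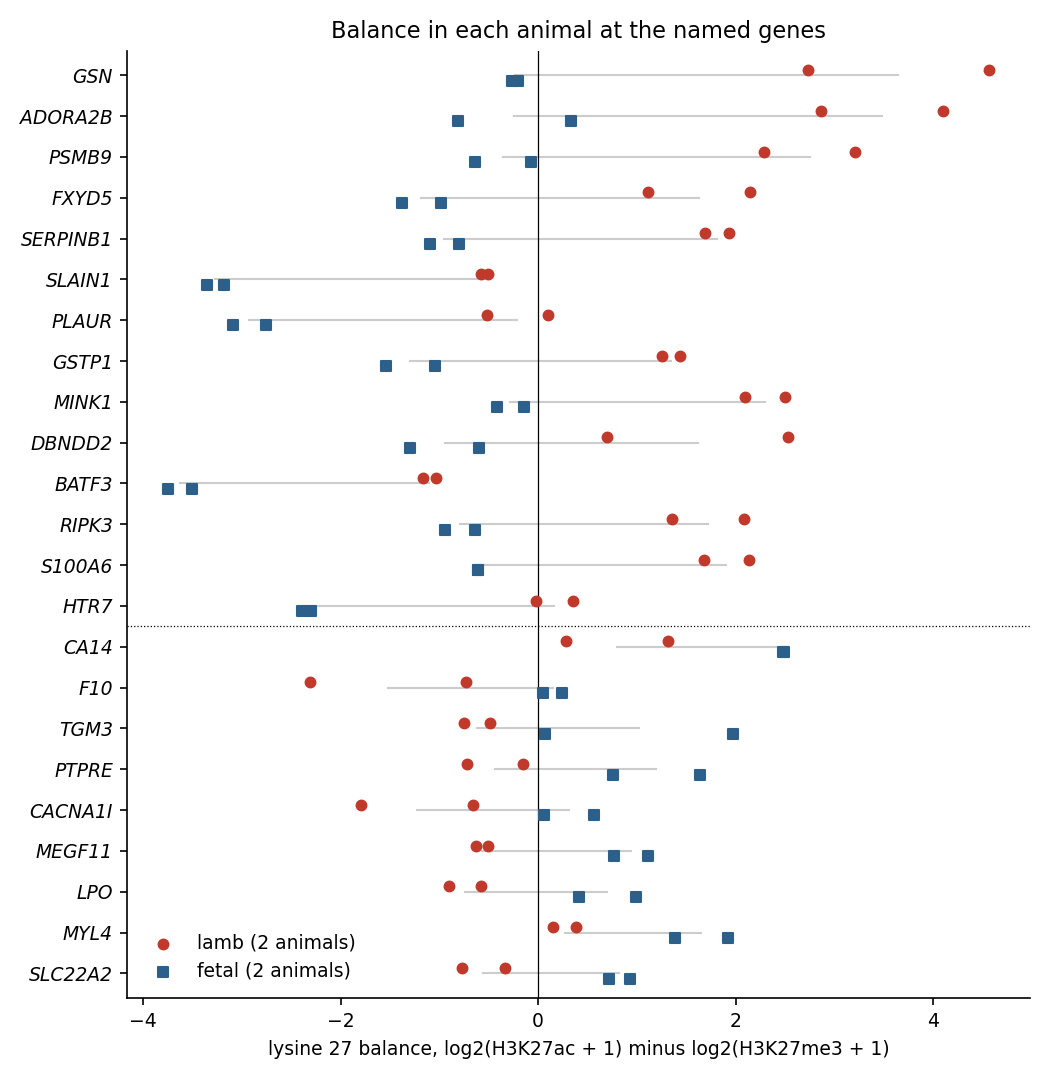
Lysine 27 balance (log2, horizontal) in each animal at the 14 genes named for the largest changes toward acetylation (above the dotted line) and at 9 of those toward methylation (below it). Red circles are lambs, blue squares fetuses, and grey lines join the stage means. The stages do not overlap at any of the 23 genes, and non-overlap was part of the rule by which the largest changes were named.

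Changes toward methylation were smaller, and at the genes described here with a symbol they ran to -1.69, against 3.88 toward acetylation. PTPRE, a receptor tyrosine phosphatase, had H3K27me3 at 129.6 and 114 in lambs, against 68.1 and 32.6 in fetuses, and its H3K27ac level was 116 and 68.6 in lambs, against 115 and 104 in fetuses. Its balance changed by -1.64 ± 0.39 (adjusted p = 0.00079), and of the single marks H3K27me3 passed. TGM3, a transglutaminase, had H3K27me3 at 106 and 90.7 in lambs, against 23.4 and 58.7 in fetuses. Its balance was -0.75 and -0.49 in lambs, against 1.98 and 0.07 in fetuses, a change of -1.65 ± 0.45 (adjusted p = 0.0028). The fetuses differed more from each other than the lambs did at TGM3. MEGF11, a cell surface protein, had H3K27me3 at 126 and 114 in lambs, against 53.2 and 54.3 in fetuses and a change of -1.51 ± 0.37 (adjusted p = 0.0011). Among the 5 genes that passed on both marks alone in this direction were a histone H2B gene, a 7SK RNA entry and 2 genes without a symbol (ENSOARG00000009236 and ENSOARG00000010694, the second of them with the largest change toward methylation, -2.54), which the naming rule passed over and which were chosen after their values were seen.

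The carbonic anhydrase gene CA14 lost H3K27ac, at 90.5 and 93.8 in lambs, against 183 and 163 in fetuses, and changed by -1.69. MYL4, a myosin light chain of atrial and embryonic muscle, changed by -1.38. Its H3K27ac level was 123 and 109.8 in lambs, against 172 and 166 in fetuses. The larger part of its change came from H3K27me3. H3K27me3 made up most of the change at F10, which encodes coagulation factor X (-1.67), and LPO, lactoperoxidase (-1.44). Levels of F10 in H3K27me3 were 128 and 48.8 in lambs, against 27.7 and 21.7 in fetuses, and the lambs differed widely from each other. CACNA1I, a calcium channel, changed by -1.54 and SLC22A2, an organic cation transporter, by -1.38. The calls of CA14 and SLC22A2 ended without lamb 1 and without fetal 2. The call of F10 ended without lamb 1 and without fetal 1. The calls of TGM3 and MYL4 ended without fetal 1. The calls of PTPRE and LPO ended without fetal 2. The call of CACNA1I ended without lamb 1. The call of MEGF11 held in all alternatives in which it was tested.

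At 243 genes the balance was below 0 in both fetuses and above 0 in both lambs, and 172 of these were called. The reverse held at 45 genes, of which 29 were called. The median joined gene itself crossed 0, at 0.06 and 0.03 in lambs, against -0.45 and -0.45 in fetuses. These counts therefore include the common shift of 0.60 and depend on where 0 is set, which is a convention. They are given for the first scaling alone. The 5 largest upward crossings were GSN, PSMB9, FXYD5, SERPINB1 and GSTP1, and the 5 largest downward ones included F10, TGM3 and PTPRE, all called. FXYD5 had a balance of 2.14 and 1.11 in lambs, against -0.98 and -1.38 in fetuses, and PTPRE had -0.16 and -0.72 in lambs, against 0.75 and 1.64 in fetuses. The balance stayed below 0 in all 4 animals at 798 genes and above 0 in all 4 at 544.

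UCP1 and ADRB3, genes of brown fat, moved toward methylation through loss of H3K27ac. The promoter of UCP1 had an H3K27ac level of 72.5 and 75.6 in lambs, against 145 and 149 in fetuses. Its H3K27me3 level was 246 and 258 in lambs, against 272 and 239 in fetuses, and the stages overlapped. The balance of UCP1 was -1.75 and -1.76 in lambs, against -0.91 and -0.68 in fetuses, a change of -0.96 ± 0.29 (adjusted p = 0.0076), and 3.00% of joined genes had as low a change. ADRB3, the receptor through which noradrenaline activates brown fat, had H3K27ac at 93.2 and 69.9 in lambs, against 137 and 123 in fetuses and H3K27me3 at 185 and 130.2 in lambs, against 126 and 139 in fetuses. Its balance was -0.98 and -0.89 in lambs, against 0.12 and -0.17 in fetuses, a change of -0.91 ± 0.33 (adjusted p = 0.025). In both genes H3K27ac was lower in both lambs than in both fetuses, passing alone (adjusted p = 6.7e-05 and 0.004), and H3K27me3 did not pass (adjusted p = 0.96 and 0.58). The call of UCP1 ended without lamb 1, without lamb 2 and without fetal 2. The call of ADRB3 ended without the variance trend, with a replicate block, without lamb 1, without fetal 1 and without fetal 2.

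**Figure D4:**
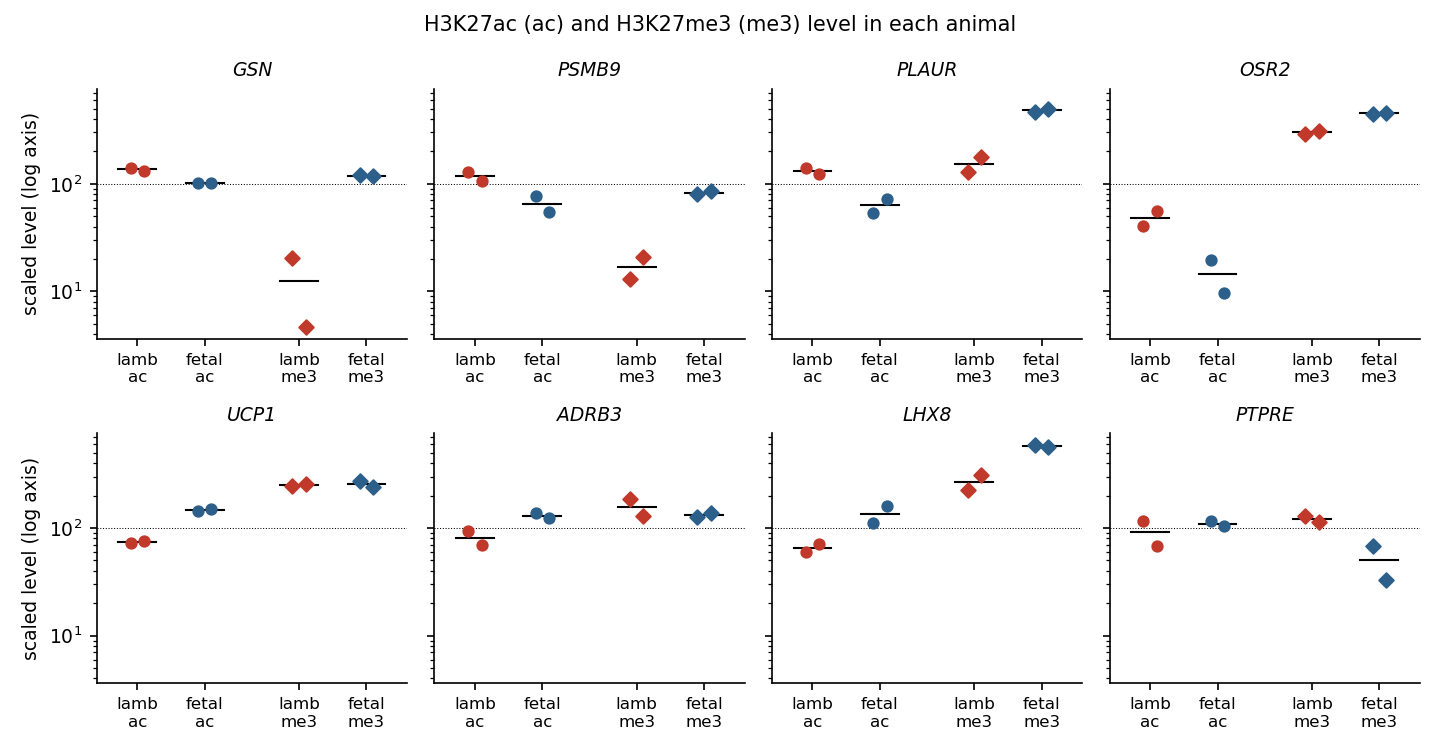
Scaled H3K27ac (circles) and H3K27me3 (diamonds) level of each lamb (red) and fetus (blue) at 8 promoters, on a log axis where 100 (dotted line) is the median of the table; black bars are stage means. GSN, PSMB9, PLAUR and OSR2 gained H3K27ac and lost H3K27me3 in lambs, UCP1 and ADRB3 lost H3K27ac alone, LHX8 lost both marks, and PTPRE gained H3K27me3 alone.

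Of 49 brown fat and thermogenic genes, 15 were joined, with a median change of 0.12 beside 0.60 over all joined genes. Of the 15, 2 were called toward acetylation (13.3%, beside 33.2% of all joined genes), 2 toward methylation (13.3%, beside 2.57%) and 11 neither. The count toward acetylation was 1 without fetal 2 and 0 under joined-gene scaling, on the deposited scale and without fetal 1, and that toward methylation was 1 without the variance trend, with a replicate block, without lamb 2 and without fetal 1 and 0 without lamb 1 and without fetal 2. Those toward methylation were UCP1 and ADRB3. Those toward acetylation were GATM, an enzyme of creatine synthesis (1.11), and ESRRG, a nuclear receptor of mitochondrial genes (1.10), both through H3K27me3. H3K27me3 of ESRRG was 92.6 and 137 in lambs, against 249 and 202 in fetuses. The call of GATM ended under joined-gene scaling, on the deposited scale, without lamb 2, without fetal 1 and without fetal 2. The call of ESRRG ended under joined-gene scaling, on the deposited scale and without fetal 1. The LIM homeobox gene LHX8, a marker of brown fat, lost both marks. Its H3K27ac level was 59.3 and 70.5 in lambs, against 110.4 and 161 in fetuses, and its H3K27me3 level was 226 and 312 in lambs, against 596 and 565 in fetuses. Both marks passed alone, and the balance change was 0.09 ± 0.27 (adjusted p = 0.82).

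Over the 15 joined of 34 white fat genes, the median change was 0.22. Of the 15, 2 were called toward acetylation (13.3%, beside 33.2% of all joined genes) and none toward methylation (beside 2.57%). The called genes were SFRP4, a secreted WNT inhibitor (1.36), and MEST, an imprinted gene of growing fat (0.91). Over the 12 joined of 37 adipocyte genes, 1 was called toward acetylation (8.33%) and none toward methylation, with a median of 0.09. The called gene was KLF5, a zinc finger factor of early fat cell differentiation (1.78). The lowest adipocyte gene, chosen after its values were seen, was the lipid droplet gene PLIN1, with H3K27ac at 155 and 161 in lambs, against 278 and 344 in fetuses and a change of -0.70 ± 0.39 that was not called (adjusted p = 0.15). Under joined-gene scaling 3 adipocyte genes were called toward methylation. LEP, the leptin gene, had a balance of -1.77 and -1.91 in lambs, against -2.08 and -1.98 in fetuses, a change of 0.19 ± 0.29 (adjusted p = 0.63). The white fat count was 1 with TMM scaling, without the variance trend, after quantile normalisation and without lamb 1 and 0 under joined-gene scaling, on the deposited scale and without fetal 2. The call of SFRP4 ended under joined-gene scaling, on the deposited scale and without fetal 2. The call of MEST ended under joined-gene scaling, with TMM scaling, on the deposited scale, without the variance trend, with a replicate block, after quantile normalisation, without lamb 1, without fetal 1 and without fetal 2. The summed scaled H3K27ac of the whole adipocyte list in its table was lower in lambs, at 3629 and 3576, against 4694 and 4613 in fetuses.

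The median change of 9 joined adrenergic, natriuretic and adenosine receptors was 0.03. Of the 9, 3 were called toward acetylation (33.3%, near the 33.2% of all joined genes) and 2 toward methylation (22.2%, beside 2.57%). ADORA2B had the highest change, and those toward methylation were ADRB3 and NPR3, the clearance receptor of natriuretic peptides, whose H3K27ac was 43.2 and 46.9 in lambs, against 99.5 and 103 in fetuses. NPR3 changed by -0.97 ± 0.35 (adjusted p = 0.026). The call of NPR3 ended without the variance trend, without lamb 1 and without fetal 2. The count toward acetylation was 1 under joined-gene scaling, on the deposited scale, after quantile normalisation, without lamb 2 and without fetal 2, and that toward methylation was 4 under joined-gene scaling, 1 with a replicate block and without fetal 1 and 0 without the variance trend, without lamb 1 and without fetal 2.

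Lists of developmental transcription factors differed in their calls, and no list was tested against the other joined genes. Of 37 joined homeobox genes outside the HOX clusters, 22 were called toward acetylation (59.5%, beside 33.2% of all joined genes) and 1 toward methylation (2.70%, beside 2.57%), with a median change of 1.20. The median was 0.47 at the 22 of them with both mean levels at 50 or more, of which 9 were called toward acetylation, and 0.52 after quantile normalisation, beside 0.61 and 0.44 over all joined genes in those settings. LHX2, a LIM homeobox factor, had H3K27ac at 34.1 and 24.1 in lambs, against 11.4 and 10.8 in fetuses and H3K27me3 at 189 and 151 in lambs, against 236 and 293 in fetuses, and changed by 1.93 ± 0.31 (adjusted p = 2e-06). MSX2, a factor of skeletal and skin development, had H3K27me3 at 206 and 216 in lambs, against 572 and 567 in fetuses and changed by 1.93 ± 0.27 (adjusted p = 2.7e-07). VAX2 and VAX1, factors of the developing eye and forebrain, changed by 1.92 and 1.89, and MKX, a tendon factor, by 1.87. These 5 genes kept a balance below 0 in both stages: that of VAX2 was -1.72 and -1.75 in lambs, against -3.31 and -3.99 in fetuses. MEIS1, a partner of HOX proteins, was the one called toward methylation, through H3K27ac at 88.5 and 106 in lambs, against 227 and 248 in fetuses, with a change of -1.07 ± 0.35 (adjusted p = 0.014). The call of MEIS1 ended after quantile normalisation, without lamb 1, without fetal 1 and without fetal 2. Of the 37 genes, 27 were in the highest group by H3K27me3, and the share called in the list was below the 67.8% of all genes in that group. The count of 22 was 10 on the deposited scale and 8 after quantile normalisation, and the count of 1 toward methylation was 4 under joined-gene scaling and 0 without fetal 1 and without fetal 2.

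The median change of 17 joined basic helix-loop-helix lineage factors was 0.90, and 10 were in the highest H3K27me3 group. Of the 17, 9 were called toward acetylation (52.9%, beside 33.2% of all joined genes) and none toward methylation. They included TCF24 (2.18), ATOH7, a factor of retinal neurons (2.07), FERD3L (1.97), and HEY1 and HEY2, effectors of Notch signalling (1.56 and 1.44). FERD3L had H3K27ac at 71.8 and 78.9 in lambs, against 30.8 and 30.7 in fetuses and H3K27me3 at 311 and 279 in lambs, against 447 and 519.6 in fetuses. The count of 9 was 5 after quantile normalisation and 3 on the deposited scale, and that toward methylation was 1 under joined-gene scaling and after quantile normalisation. Zinc finger lineage factors had 8 of 17 joined members called toward acetylation (47.1%) and none toward methylation (median 0.95), a count that was 5 under joined-gene scaling and on the deposited scale. OSR2, an odd-skipped factor of mesodermal tissue, had the largest H3K27ac change among the named genes, at 40.1 and 55.8 in lambs, against 19.4 and 9.64 in fetuses, while its H3K27me3 was 291 and 309 in lambs, against 449 and 452 in fetuses. Its balance was -2.83 and -2.45 in lambs, against -4.46 and -5.41 in fetuses, a change of 2.30 ± 0.29 (adjusted p = 3.7e-08). Its relative OSR1 changed by 1.44 ± 0.26 (adjusted p = 2e-05), mainly through H3K27me3 at 409 and 288 in lambs, against 659.6 and 648 in fetuses. The calls of HEY1 and HEY2 ended on the deposited scale. The call of OSR1 ended after quantile normalisation and without lamb 2. PRDM8 and PRDM6, of the PR-domain family, changed by 2.08 and 1.96.

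The 21 joined HOX entries had a median change of -0.06, which was 0.05 without fetal 1, -0.56 under joined-gene scaling and -0.43 on the deposited scale. Over all joined genes, 33.2% were called toward acetylation and 2.57% toward methylation. Of the 21 entries, 2 were called toward acetylation (9.52%), HOXB9 (1.08) and HOXD10 (0.81), both through H3K27me3, and 1 toward methylation (4.76%). That was the HOXA5 entry on chromosome 4 (Oar_v3.1), with H3K27ac at 147 and 155 in lambs, against 311 and 272 in fetuses and a change of -1.21 ± 0.40 (adjusted p = 0.015). A second entry named HOXA5, on chromosome 11, had a difference of -0.06 and was not called. HOXC8, HOXC9 and HOXC10, genes of posterior body regions, had differences of -0.32, 0.40 and -0.32 and were not called, other than HOXC8 under joined-gene scaling (-0.82, adjusted p = 0.047). The call of HOXB9 ended under joined-gene scaling, on the deposited scale, after quantile normalisation and without fetal 2. The call of HOXD10 ended under joined-gene scaling, with TMM scaling, on the deposited scale, without the variance trend, after quantile normalisation, without lamb 1, without lamb 2 and without fetal 2. The call of HOXA5 ended after quantile normalisation and without fetal 2. Under joined-gene scaling no HOX entry was called toward acetylation and 3 were called toward methylation.

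Some regulators changed little in balance where both marks fell together. H3K27ac and H3K27me3 were each called lower at 30 joined genes and each called higher at 2 (LIM2 and ENSOARG00000005887). TBX18, a T-box factor of perivascular and stromal cells, had H3K27ac at 92.7 and 89.4 in lambs, against 200.5 and 207 in fetuses, and H3K27me3 at 124 and 151 in lambs, against 268 and 263 in fetuses. Its balance changed by -0.20 ± 0.31 (adjusted p = 0.64). EN1, an engrailed homeobox gene, had H3K27ac at 73.8 and 82.1 in lambs, against 119 and 108 in fetuses and H3K27me3 at 194 and 233 in lambs, against 323 and 330.4 in fetuses, with a balance change of 0.08 ± 0.29. TCF21, a factor of visceral stroma, lost both marks as well (-0.40 for H3K27ac and -0.80 for H3K27me3) and changed by 0.40 in balance. None of these was called in balance in any alternative.

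Of 30 genes chosen by name, 19 were joined. PPARGC1A, DIO2, ADIPOQ, EBF2 and VDR were in the H3K27ac table alone, PRDM16, TBX15 and ZIC1 in the H3K27me3 table alone, and PPARG, GATA2 and CDKN2A in neither. Among those joined and not yet described, NR5A1, the master factor of steroid-producing cells, changed by 1.71 ± 0.29 (adjusted p = 7.7e-06), with H3K27ac at 33.7 and 38.5 in lambs, against 15.7 and 13.6 in fetuses and H3K27me3 at 244 and 209 in lambs, against 285 and 341 in fetuses. NR5A1 is one of 4 joined adrenal and chromaffin markers, of which 3 were called toward acetylation with a median of 1.36, all in the highest H3K27me3 group. The summed scaled H3K27ac of 6 of 22 such markers was 580.2 and 553 in lambs, against 524 and 481 in fetuses, higher in both lambs, and its part in the change of NR5A1 was not tested. MYCN, a growth-promoting transcription factor, changed by 1.09 ± 0.36 (adjusted p = 0.015). Not called were GATA3 (0.68, adjusted p = 0.057), TBX5 (0.67, 0.065), WT1 (-0.27, 0.52), DLK1, the preadipocyte factor (0.00, 0.997), and GATA6 (-0.94, 0.055). GATA6 had H3K27ac at 87.0 and 82.4 in lambs, against 157 and 109 in fetuses. GATA6 was called toward methylation with a pseudocount of 10, under joined-gene scaling (adjusted p = 0.0086), with TMM scaling (adjusted p = 0.036), on the deposited scale (adjusted p = 0.038), with both mean levels at 50 or more and with a crossed replicate block. GATA3 was called toward acetylation with a pseudocount of 10, with both mean levels at 50 or more, with either replicate block and without fetal 1, TBX5 with a crossed replicate block, and WT1 after quantile normalisation (-0.81, adjusted p = 0.049). The call of MYCN ended under joined-gene scaling, on the deposited scale, after quantile normalisation, without lamb 2 and without fetal 2.

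Over all joined genes, 33.2% were called toward acetylation and 2.57% toward methylation. Among 8 joined nuclear receptors, 3 were called toward acetylation (37.5%), NR4A2, NR5A1 and ESRRG, and 1 toward methylation (12.5%), with a median of 0.27. NR4A2, an immediate early gene, had H3K27me3 at 106 and 130.2 in lambs, against 370.2 and 404 in fetuses, H3K27ac at 118 and 128 in lambs, against 127 and 117 in fetuses, and a balance change of 1.73 ± 0.30 (adjusted p = 1.1e-05). Of 71 Polycomb and chromatin enzymes, 7 were joined and 3 of these were called toward acetylation (42.9%), namely PRDM8, PRDM6 and PHF19 (median 1.07). PHF19, an accessory protein of the complex that writes H3K27me3, had H3K27ac at 81.9 and 85.1 in lambs, against 59.0 and 47.0 in fetuses and H3K27me3 at 68.5 and 41.9 in lambs, against 100.0 and 139 in fetuses, and changed by 1.78 ± 0.39 (adjusted p = 0.00026). The call of PHF19 ended without fetal 2. SOX, GATA and T-box factors had no call among 11 joined members in limma's test (median 0.62), where 4 had an unadjusted p under 0.05. In the alternatives 0 to 3 were called toward acetylation and 0 to 1 toward methylation.

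Genes of 4 signalling lists are given beside the 33.2% called toward acetylation and 2.57% called toward methylation over all joined genes. Of 22 joined genes of BMP, activin and TGF-beta signalling, 9 were called toward acetylation (40.9%) and none toward methylation (median 0.54). They included the cytokine TGFB1 (1.83), the BMP family members BMP3 (1.71) and BMP2 (1.43), the activin receptor ACVR1B (1.45) and the BMP antagonist chordin, CHRD (1.39). BMP3 had H3K27ac at 67.0 and 67.8 in lambs, against 33.3 and 30.7 in fetuses and H3K27me3 at 254 and 202 in lambs, against 336 and 383 in fetuses. The count of 9 was 5 without fetal 1, 3 under joined-gene scaling and without fetal 2 and 1 on the deposited scale. The calls of TGFB1 and CHRD ended under joined-gene scaling, on the deposited scale and without fetal 2. The call of BMP2 ended on the deposited scale, after quantile normalisation, without lamb 2 and without fetal 2. The call of ACVR1B ended under joined-gene scaling, on the deposited scale, without fetal 1 and without fetal 2. Notch and Hedgehog signalling had 6 of 12 called toward acetylation (50.0%, median 0.80), among them HHIP, which binds and restrains Hedgehog ligands (1.84), and the Notch ligand DLL1 (1.22). That count was 3 under joined-gene scaling, after quantile normalisation and without fetal 2 and 1 on the deposited scale. H3K27ac of HHIP was 63.9 and 64.5 in lambs, against 35.1 and 23.8 in fetuses, and its H3K27me3 was 200.0 and 163 in lambs, against 285 and 309 in fetuses. WNT ligands, receptors and inhibitors had 7 of 15 called toward acetylation (46.7%, median 0.89), including the inhibitor DKK1 (1.30), and this count was 2 after quantile normalisation and without fetal 2, 1 under joined-gene scaling and 0 on the deposited scale. The FGF list had 4 of 7 called toward acetylation (57.1%, median 0.86), led by SPRED3, an inhibitor of growth factor signalling (1.56), and this count was 2 with TMM scaling, without the variance trend and without lamb 2, 1 under joined-gene scaling and after quantile normalisation and 0 on the deposited scale and without fetal 2. The call of DLL1 ended under joined-gene scaling, on the deposited scale, after quantile normalisation and without fetal 2. The call of DKK1 ended on the deposited scale and after quantile normalisation. The call of SPRED3 ended on the deposited scale and without fetal 2. No gene of these lists was called toward methylation in the first scaling, and the alternatives gave 2 under joined-gene scaling and 1 without lamb 1 for Notch and Hedgehog genes, and 1 under joined-gene scaling for WNT genes and likewise for FGF genes.

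Matrix genes were called in both directions, with a median near that of all joined genes. Of 40 joined collagens, laminins, integrins and matrix proteases, 18 were called toward acetylation (45.0%, beside 33.2% of all joined genes) and 2 toward methylation (5%, beside 2.57%), with a median of 0.66 beside 0.60. LAMA3, a laminin chain of epithelial basement membranes, had H3K27me3 at 59.3 and 121 in lambs, against 321 and 296 in fetuses and changed by 2.05 ± 0.34 (adjusted p = 4.5e-06). The protease ADAMTS3 (1.51), fibrillin FBN2 (1.47), fibulin FBLN1 (1.45) and cartilage collagen COL2A1 (1.38) followed. Toward methylation were COL4A2, a collagen of basement membranes, and the protease ADAMTS20, both through H3K27ac. COL4A2 had H3K27ac at 105 and 107 in lambs, against 291 and 282 in fetuses and changed by -1.18 ± 0.41 (adjusted p = 0.018); ADAMTS20 had 50.9 and 59.1 in lambs, against 102 and 124 in fetuses and changed by -1.25 ± 0.36 (adjusted p = 0.0043). The count of 18 was 11 after quantile normalisation and without lamb 2, 5 without fetal 2, 4 under joined-gene scaling and 1 on the deposited scale, and the count of 2 was 1 without fetal 1 and 0 without fetal 2. The call of ADAMTS3 ended under joined-gene scaling, on the deposited scale, without lamb 2, without fetal 1 and without fetal 2. The call of FBN2 ended on the deposited scale. The call of FBLN1 ended under joined-gene scaling, on the deposited scale and without fetal 2. The call of COL2A1 ended on the deposited scale and after quantile normalisation. The call of COL4A2 ended after quantile normalisation, without lamb 2, without fetal 1 and without fetal 2. The call of ADAMTS20 ended without fetal 2.

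Ion channels and transmitter receptors of neurons had 19 of 39 joined members called toward acetylation (48.7%, beside 33.2% of all joined genes) and 2 toward methylation (5.13%, beside 2.57%), with a median of 0.79. Of the 39, 23 lay in the highest H3K27me3 group, where 67.8% of all genes were called toward acetylation. HTR7 led the list, followed by the calcium channel CACNA1D (2.18) and KCNMB4 and KCNIP3, partners of potassium channels (2.17 and 1.88). CACNA1D had H3K27ac at 49.6 and 56.4 in lambs, against 21.9 and 21.7 in fetuses and H3K27me3 at 189 and 172 in lambs, against 326 and 369.6 in fetuses. CACNA1I and ADRB3 were those called toward methylation. The count of 19 was 11 without fetal 2, 10 under joined-gene scaling and after quantile normalisation and 7 on the deposited scale, and the count of 2 was 4 under joined-gene scaling, 1 without the variance trend, with a replicate block, without fetal 1 and without fetal 2 and 0 without lamb 1. Of 41 joined solute carriers, 11 were called toward acetylation (26.8%) and 2, among them SLC22A2, toward methylation (median 0.49). SLC15A3, a lysosomal peptide transporter, changed by 2.18 and SLC10A4, of the bile acid transporter family, by 2.03. The count of 11 was 6 after quantile normalisation, 5 without fetal 2 and 4 under joined-gene scaling and on the deposited scale, and the count of 2 was 4 under joined-gene scaling and 1 without lamb 1 and without fetal 2. Smaller lists were led by PLXNC1 among semaphorins and their partners (4 of 17 called, 1.71), CDH11 among cadherins (2 of 8, 1.73), ESRP2, a splicing factor of epithelia, among epithelial genes (5 of 10, 1.84), and MYCL among cell cycle genes (3 of 7, 1.28), all toward acetylation and none toward methylation. These counts were 7 with a crossed replicate block and 1 under joined-gene scaling and on the deposited scale for semaphorins, 4 without lamb 1, 1 under joined-gene scaling, on the deposited scale and without lamb 2 and 0 without fetal 2 for cadherins, 3 under joined-gene scaling and 2 on the deposited scale for epithelial genes and 1 after quantile normalisation and without fetal 2 and 0 under joined-gene scaling and on the deposited scale for cell cycle genes. Under joined-gene scaling each of these 4 lists had 1 call toward methylation, as cell cycle genes had without lamb 2. The call of CDH11 ended without fetal 2. The call of MYCL ended under joined-gene scaling, on the deposited scale and without fetal 2.

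**Figure D5:**
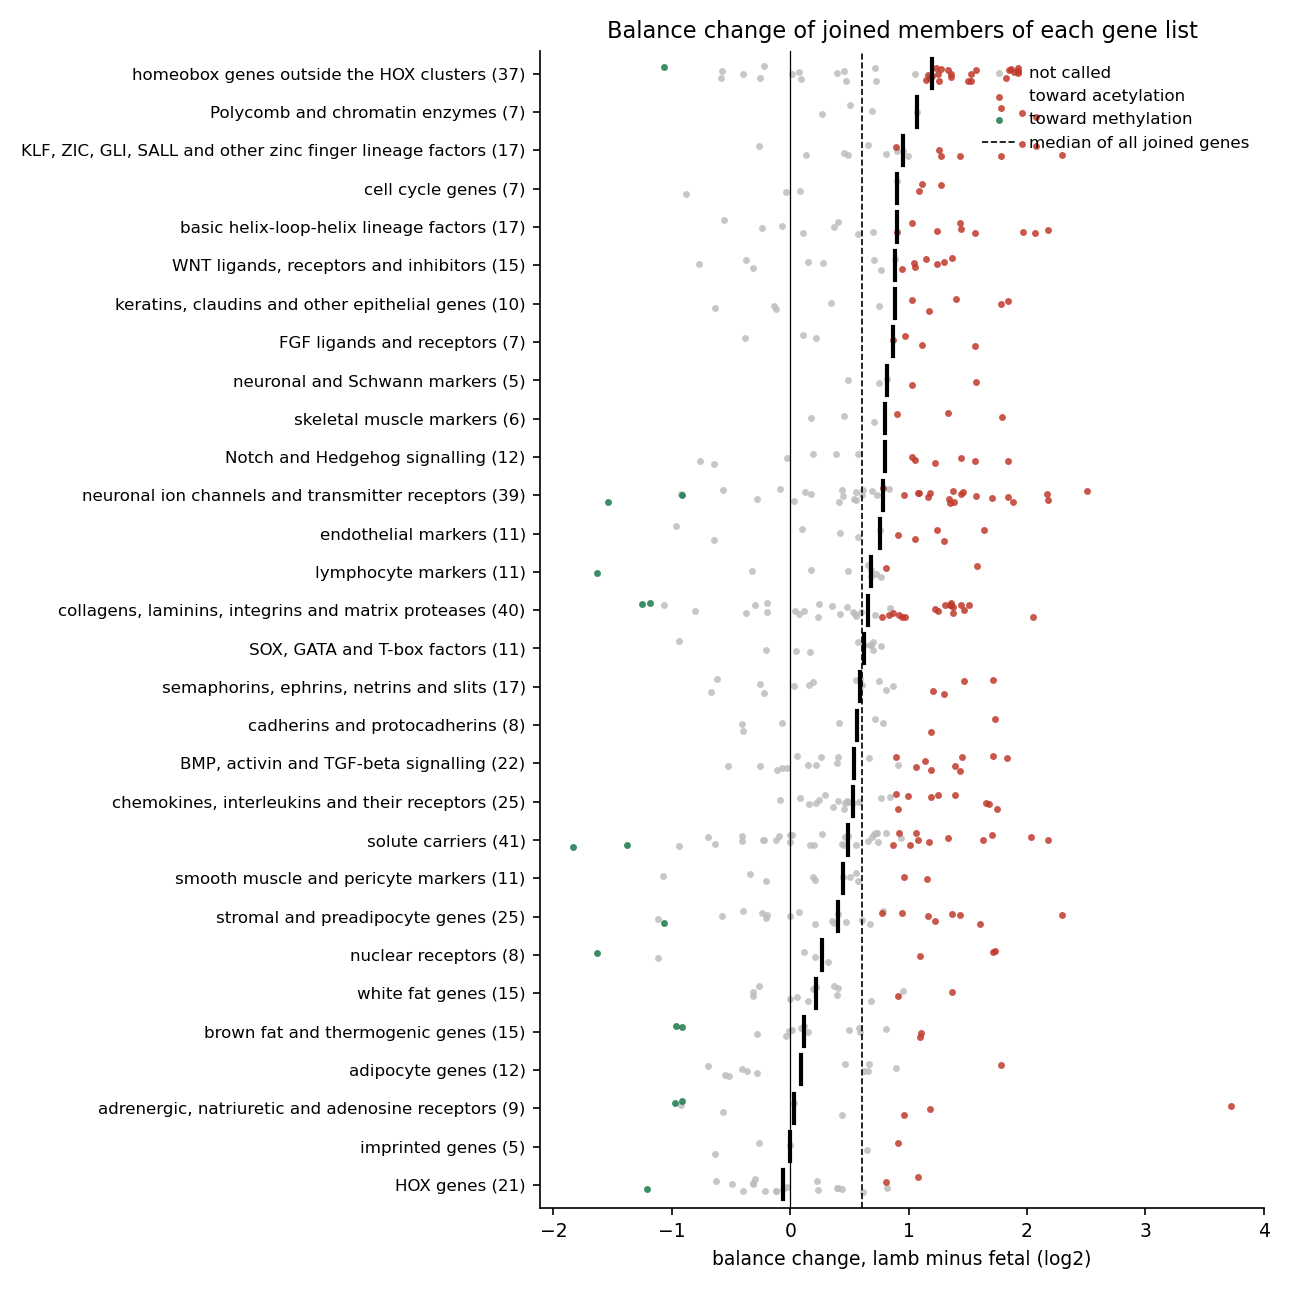
Balance change (log2, lamb minus fetal) of the joined members of each gene list with at least 5 of them, with the number of members in brackets. Red points were called toward acetylation, green toward methylation and grey neither; black bars are list medians and the dashed line is the median of all joined genes, 0.60. In this scaling, homeobox genes outside the HOX clusters have a median of 1.20 and HOX genes one of -0.06; the order of the lists changed in other settings.

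Markers of the other cell types that whole fat can hold were also followed. In the H3K27ac table the summed scaled level of 18 of 52 lymphocyte markers was 1751 and 1594 in lambs, against 1430.1 and 1393 in fetuses, and that of 18 of 40 macrophage and myeloid markers was 2199.8 and 2008 in lambs, against 2014 and 1852 in fetuses. The sum over 39 of 54 stromal and preadipocyte genes was 3765 and 3869 in lambs, against 4852 and 4837 in fetuses, and that over 22 of 29 endothelial markers was 2318 and 2222 in lambs, against 2647 and 2215 in fetuses. Both lambs were above both fetuses in the lymphocyte sum. They were below them in the stromal, adipocyte, brown fat and white fat sums, and in the mesothelial and skeletal muscle sums given below. The median level separated the stages in the same way for lymphocyte, adipocyte, brown fat, white fat and mesothelial genes. It was also higher in both lambs for neuronal and Schwann markers. The macrophage and myeloid median was higher in both lambs, at 119.6 and 105.4, against 101.7 and 88.9 in fetuses, while the sums overlapped. The median level overlapped for stromal genes, at 100 and 103 in lambs, against 104 and 90.4 in fetuses. The sum of adrenal and chromaffin markers was also higher in both lambs, as given beside NR5A1. Their median level overlapped, at 89.2 and 71.1 in lambs, against 79.2 and 64.0 in fetuses. The sum over 6 of 24 neuronal and Schwann markers was higher in both lambs too, at 548 and 529.8, against 454 and 487 in fetuses. Of 6 of 18 mesothelial markers the sum was 444 and 445 in lambs, against 540.0 and 507 in fetuses, and of 5 of 25 kidney markers it was 472 and 412 in lambs, against 432 and 403 in fetuses. The sum over 14 of 22 smooth muscle and pericyte markers was 1358 and 1367 in lambs, against 1469.9 and 1355 in fetuses, and over 12 of 34 skeletal muscle markers it was 889 and 894 in lambs, against 963 and 1144 in fetuses. No marker of these lists was at 0 in any library, and the part of these shifts in the balance was not tested. Among 11 joined lymphocyte markers, CD8A, the co-receptor of cytotoxic T cells, led the 2 called toward acetylation, with H3K27ac at 89.2 and 82.9 in lambs, against 45.8 and 32.5 in fetuses and a change of 1.58 ± 0.33 (adjusted p = 0.00014), and 1 was called toward methylation. The count of 2 was 4 with a crossed replicate block and 1 under joined-gene scaling, with TMM scaling, on the deposited scale, without the variance trend, after quantile normalisation, without lamb 1 and without fetal 2. Only 3 macrophage and myeloid markers were joined. Chemokines, interleukins and their receptors had 9 of 25 called toward acetylation (36.0%), a share near the 33.2% of all joined genes, and none toward methylation, with a median of 0.53 beside 0.60. TNFSF9, a ligand that stimulates T cells, changed by 1.74, IL10RA, the receptor of a dampening interleukin, by 1.68, and CXCL16, a chemokine, by 1.66. That count was 4 without fetal 1 and without fetal 2 and 2 under joined-gene scaling and on the deposited scale. The call of CXCL16 ended under joined-gene scaling, on the deposited scale, without lamb 1, without fetal 1 and without fetal 2.

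Of 11 joined endothelial markers, 5 were called toward acetylation (45.5%, beside 33.2% of all joined genes) and none toward methylation (median 0.76). None of the 5 passed on H3K27ac alone, and all but DLL4 passed on lower H3K27me3 alone. PROX1, the factor of lymphatic endothelium, had H3K27me3 at 187 and 277 in lambs, against 517 and 665 in fetuses and H3K27ac at 84.8 and 91.1 in lambs, against 75.1 and 69.6 in fetuses, a balance change of 1.64 ± 0.28 (adjusted p = 5.9e-06). FLT1, a receptor for vascular growth factor, changed by 1.30 and FLI1, an ETS factor, by 1.24. The count of 5 was 3 without the variance trend, 2 without fetal 2 and 1 under joined-gene scaling, on the deposited scale and after quantile normalisation, and the count toward methylation was 2 under joined-gene scaling and 1 after quantile normalisation and without lamb 1. Of 25 joined stromal and preadipocyte genes, 8 were called toward acetylation (32.0%, near the 33.2% of all joined genes) and MEIS1 toward methylation, with a median of 0.40. OSR2 was followed by fibronectin, FN1 (1.61), and the surface protein THY1 (1.23), and the count of 8 was 4 after quantile normalisation and without lamb 2 and 3 under joined-gene scaling, on the deposited scale and without fetal 2. Toward methylation the count was 4 under joined-gene scaling, 2 without the variance trend and 0 after quantile normalisation, without fetal 1 and without fetal 2. The call of FLT1 ended under joined-gene scaling, on the deposited scale and after quantile normalisation. The call of FLI1 ended under joined-gene scaling, on the deposited scale, after quantile normalisation and without fetal 2. The call of THY1 ended under joined-gene scaling, on the deposited scale and without fetal 2. The muscle precursor factor PAX3 (1.79) led 3 of 6 skeletal muscle markers called toward acetylation, FOXS1 (1.16) led 2 of 11 of smooth muscle and pericytes, and 2 of 5 of neurons and Schwann cells were called. PAX3 had H3K27ac at 58.1 and 45.5 in lambs, against 23.9 and 25.6 in fetuses and H3K27me3 at 219 and 274 in lambs, against 409 and 424 in fetuses, so its balance stayed below 0 in all 4 animals. These counts were 1 on the deposited scale and after quantile normalisation for skeletal muscle, 1 with TMM scaling, without the variance trend, after quantile normalisation, without lamb 1 and without lamb 2 and 0 under joined-gene scaling, on the deposited scale and without fetal 2 for smooth muscle and 1 under joined-gene scaling, without the variance trend, after quantile normalisation, without fetal 1 and without fetal 2 and 0 on the deposited scale for neurons. The call of FOXS1 ended under joined-gene scaling, on the deposited scale, without lamb 1, without fetal 1 and without fetal 2.

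H3K4me3, which played no part in the balance, was called changed at few of the joined genes, whether called in balance or not. Of the 1910 joined genes with an H3K4me3 value, 149 were called higher and 19 lower in lambs, and over all promoters of the H3K4me3 table, 11.4% were called higher and 1.63% lower. At the genes called toward acetylation, 705 had a value, of which 44 were called higher and 2 lower, with a median change of 0.13. Of the 705 changes 430 were above 0, beside 1068 of the 1910 over all joined genes. The median over all joined genes was 0.08. At the genes called toward methylation, 42 had a value, of which 4 were called higher and 2 lower, with a median of 0.27. The median was 0.04 at the 1163 joined genes that were not called in balance, of which 101 were called higher and 15 lower. H3K4me3 of GSN was 43.4, 74.4 and 64.6 in lambs, against 34.7 and 19.5 in fetuses, a change of 1.16 (adjusted p = 0.044), and that of S100A6 was 62.1, 88.1 and 93.8 in lambs, against 54.1 and 29.2 in fetuses (0.99, adjusted p = 0.043). ADRB3 fell in H3K4me3 as well, at 105, 123 and 106 in lambs, against 211 and 190.4 in fetuses (-0.84, adjusted p = 0.042). TGM3, called toward methylation, rose in H3K4me3, at 22.6, 90.6 and 64.6 in lambs, against 16.1 and 12.1 in fetuses (1.80, adjusted p = 0.0097). The H3K4me3 libraries of lambs 2 and 3 held 2476065 and 2542840 promoter reads, against 9988030 in lamb 1 and 11139935 and 17541582 in fetuses. Their log2 values had an SD of 0.75 and 0.85, against 1.20 in lamb 1 and 1.39 and 1.73 in fetuses. Lamb 1 lay nearest the fetuses at GSN, S100A6 and TGM3 and farthest from them at ADRB3 and UCP1. The part of depth and spread in these changes was not tested. H3K4me3 of UCP1 was 75.2, 118 and 104 in lambs, against 154 and 122 in fetuses, where the change of -0.49 did not pass (adjusted p = 0.22).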

How the data were processed

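ChIP-seq values of 4 animals per lysine 27 mark were used, with 5 animals for H3K4me3. The authors mapped reads to the sheep assembly Oar_v3.1 with CLC Genomics Workbench 7.0, per the series design. The submitters' processing notes also name bedtools 2.19.0, MACS and edgeR without roles. No source used here states the promoter window, how duplicates were treated or whether input was subtracted. The deposited promoter tables hold a signal per gene that the authors scaled by a factor not stated; all values of each lysine 27 library were whole multiples of its own step within a tolerance of 0.1 of a read, from which read numbers were worked out. The deposited peak tables hold raw read counts per region, used here for chromosome shares. The input libraries, pooled by stage, were not used.

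Each library was scaled to a table median of 100, a pseudocount of 1 was added, and the log2 balance was tested within limma 3.58.1 (R 4.3.3) over all 2297 joined genes, stage as the factor, with the prior variance following the H3K27me3 level. Single marks were tested with limma over their whole tables. Adjusted p-values are Benjamini-Hochberg, threshold 0.05. The procedure was tested on simulated data. Tables were scaled separately, so a balance of 0 is a convention.

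Genes named in the text are the 12 largest called changes in each direction whose stages did not overlap, up to 12 per direction called on both marks, of each list with at least 5 joined members the leading called member per direction and up to 4 more, the 5 largest crossings of 0 per direction, and 30 genes chosen by name. Multi-copy RNA and histone genes and identifiers without a symbol were passed over; the few named outside this rule (PLIN1, LIM2, DYRK3, FRMD4A, DLL4 and entries without a symbol) were chosen after their values were seen. Some genes that meet this rule are not reported here. The members and lists were chosen with earlier results of these data known. There were 14 alternatives run for the balance, of which quantile normalisation and the crossed block were chosen after seeing the data; TMM factors came from edgeR 4.0.16. The tests on counts were not run. With 2 animals per stage, p-values rest on limma's pooled spread.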

Additional observations from a re-analysis of the deposited data

Results flagged for a closer look

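The X chromosome took a share of the H3K27me3 peak-region reads that differed between libraries, in data outside the balance. It was 29.7% in lamb 1 and 41.3% in lamb 2, against 49.5% in fetal 1 and 48.7% in fetal 2. No joined gene lies on the X chromosome, and the H3K27me3 promoter table used here holds 0 X genes, against 202 in the H3K27ac table and 365 in the H3K4me3 table. The part of this difference in the balance was not tested.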

How the results depend on the processing

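No called gene turned direction under any of the 14 alternatives run. A scaling that moves all changes by less than the smallest called ones, 0.78 and -0.87, could not turn one. Scaling to the joined genes gave 301 calls toward acetylation, 159 toward methylation, 38 and 12 genes called on both marks toward acetylation and toward methylation, and a median change of 0.10. The deposited scale gave 221 calls toward acetylation, 21 genes called on both marks and a median of 0.23. Quantile normalisation gave 486, 21, 0 in the reverse direction (5 in the main result) and a median of 0.44. The median was 0.47 with TMM and 0.53 with a pseudocount of 10. Leaving out 1 animal at a time gave 372 to 677 calls toward acetylation (lowest without fetal 2), 22 to 55 toward methylation, 19 to 100 and 1 to 2 genes called on both marks, and medians of 0.57 to 0.64; a stage with 1 animal is then assumed to vary like the other. With the replicate block, 701 and 52 genes were called and 238 and 7 on both marks. The numbers do not pair the animals (r = -0.13), and crossing them gave 855 and 69, with 121 and 4 on both marks. Sign changes were followed only at the uncalled genes chosen by the naming rule, and those at other uncalled genes are not listed. Under joined-gene scaling the genes that changed sign were TCF21 (-0.10), HOXC9 (-0.11), LEP (-0.31), LHX8 (-0.42), EN1 (-0.43) and DLK1 (-0.49). With TMM they were LHX8 (-0.044), EN1 (-0.057) and DLK1 (-0.14). On the deposited scale they were LEP (-0.18), LHX8 (-0.29), EN1 (-0.30) and DLK1 (-0.37). After quantile normalisation they were TBX5 (-0.11), LEP (-0.46), LHX8 (-0.57), EN1 (-0.46) and DLK1 (-0.75), and with a pseudocount of 10 DLK1 (-0.0014). With 1 animal left out, 4 of the uncalled genes chosen by the naming rule changed sign. The range was -0.22 to 0.40 for LHX8, -0.0083 to 0.16 for EN1, -0.31 to 0.32 for DLK1 and -0.74 to 0.10 for HOXC10. The causes were not tested. The count tests were not run. Leaving out X genes removed none among the genes matched to a chromosome, and keeping repeated identifiers added none. H3K27me3 depth, a median of 43 to 54 reads per promoter, limits low levels most.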
